A study of Homo sapiens with 16 samples.

Results

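The 10 human selenoprotein genes described here are SELENON, SELENOF, SELENOK, SELENOS, SELENOT, SELENOH, SELENOI, GPX1, GPX4 and MSRB1, whose mRNAs are read through an in-frame UGA codon. They were taken by gene symbol from a list of selenoproteins, and 9 of them were found among the 10799 transcripts of a table on a metastatic derivative line and among the 8980 of a table on an HNRNPC knockdown. No listed identifier matched GPX1, which was not analysed here. The set was chosen by family membership and by the values of SELENON in the metastatic line, whose ribosome footprints were known to be lower there at near-equal RNA. All values of the members in that contrast, counts past a threshold included, are therefore a description, with no p-value for a member.

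Ribosome profiling (Ribo-seq), which sequences the mRNA stretches that ribosomes shield from nuclease, and RNA-seq were performed on 4 lines derived from MDA-MB-231, a triple receptor negative breast cancer line. MDA-Par is the parental line, labelled poorly metastatic, and MDA-LM2 is its derivative selected in vivo for metastasis to lung. MDA-sgCTRL and MDA-sgHNRNPC are MDA-MB-231 cells for CRISPR interference: both carry a dCas9-KRAB repressor delivered by lentivirus, were sorted as a BFP-positive pool, and received a single guide RNA construct with puromycin selection, a control guide in the former and a guide against HNRNPC, a nuclear RNA-binding protein, in the latter. All lines were grown in the same serum-containing medium to about 70% confluence, and cycloheximide was present in the lysis buffer. From every line, 2 lysates were each split into a library of ribosome-protected footprints (RPF) and a library of RNA, which gives 16 samples in 8 groups. The values are read counts per mRNA, normalised by the authors separately for each table and each kind of library, and translational efficiency (TE) is the RPF value over the RNA value. The study's methods call the replicates biological, and p-values from limma, the main test, measure the spread between these pairs of libraries. Those from logistic regression take the normalised counts as independent reads and measure no spread between replicates.

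UGA normally ends translation. In selenoprotein mRNAs a hairpin in the 3′ UTR, the SECIS element, recruits SECISBP2 and the elongation factor EEFSEC, which deliver a dedicated tRNA carrying selenocysteine to the UGA. Insertion competes with termination at the same codon, and it depends on selenium supply. Selenoproteins are mostly oxidoreductases with selenocysteine at or near the active site, and several of them reside in the endoplasmic reticulum (ER).

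The first UGA codon read as selenocysteine in each of the 9 listed mRNAs is shown first because its place and surroundings differ widely. Each line below gives 29 bases of the listed mRNA, 5′ to 3′, with the UGA (TGA in DNA letters) in capitals and 13 bases on either side, read from GENCODE version 44 on hg38:
SELENON: tccctggctcaatTGAtcctcctgcctca
SELENOT: gatttgtgtttccTGAggttataggcggg
SELENOH: gcattgcactagcTGAcgcgtctatgggc
GPX4: cgtggcctcccagTGAggcaagaccgaag
SELENOF: tgaagtttgtggaTGAaaattgggaaggt
MSRB1: gcagtcccgattcTGAatattcagcagct
SELENOI: accaaactcagatTGActaggaatggaag
SELENOK: aatggctggtggaTGAggaaggtaaatgt
SELENOS: gtcatctggcggaTGAggctaagaatctt

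The first UGA of SELENON lies at chr1:25802093-25802095 on the plus strand, in exon 3 of 13, and is codon 127 of 590. That exon has 102 bases and is carried by 1 of the 4 transcripts annotated with selenocysteine, the listed isoform being that 1. A ribosome on the listed SELENON mRNA thus has 463 codons still to read at the first UGA.

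In the others the UGA falls at very different depths. It is early in SELENOT (codon 49 of 195, chr3:150622392-150622394), SELENOH (codon 44 of 122, chr11:57741816-57741818) and GPX4 (codon 73 of 197, chr19:1105403-1105405), all on the plus strand. It is past the middle in SELENOF (codon 96 of 165, chr1:86880690-86880692) and MSRB1 (codon 95 of 116, chr16:1940812-1940814), both on the minus strand. In SELENOI (codon 387 of 397, chr2:26389068-26389070, plus strand), SELENOK (codon 92 of 94, chr3:53885831-53885833, minus strand) and SELENOS (codon 188 of 189, chr15:101272777-101272779, minus strand) almost the whole protein is made before the UGA is reached. The base after the UGA is C in SELENOH and SELENOI, while 21.4% of the 5190 TGA termination codons among the listed mRNAs are followed by C. None of the 9 mRNAs uses TGA as its own termination codon.

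**Figure D1:**
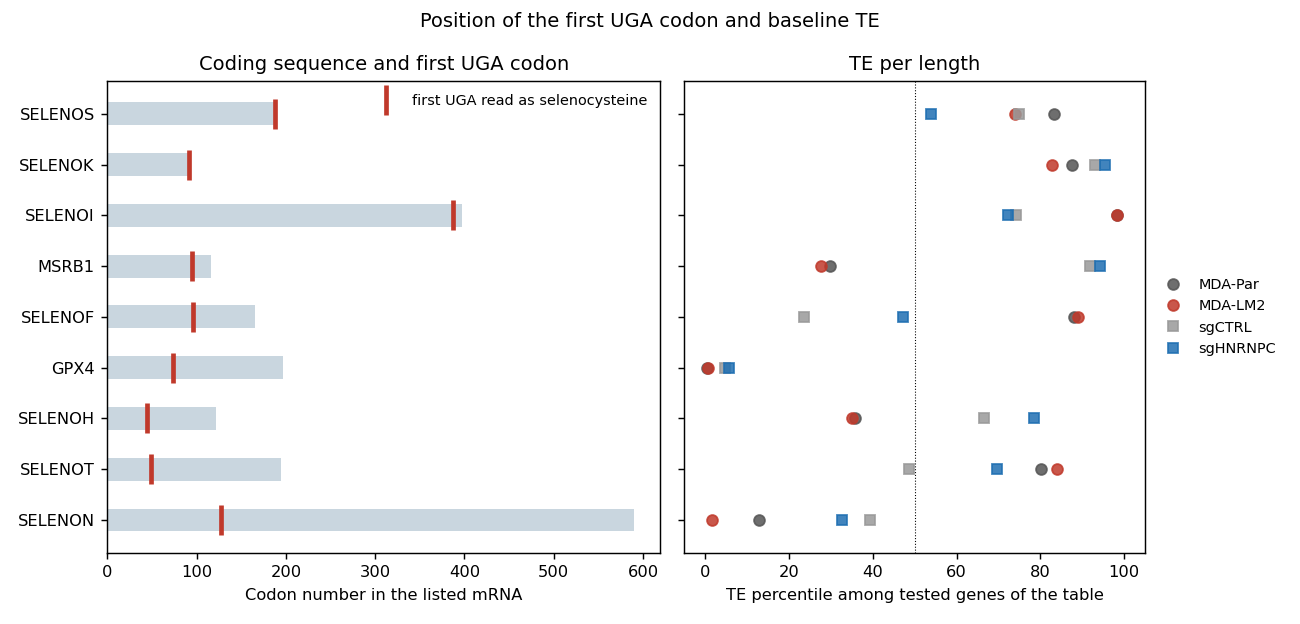
Left, the coding sequence of each listed mRNA in codons (grey bars) with the first UGA codon read as selenocysteine (red marks), ordered by its place. Right, the TE per length of each gene in the 4 lines, as a percentile among the tested genes of its table (dotted line, the 50th percentile); GPX4 lies at 0.512 to 5.66 in all 4 lines, and SELENON moves from 13 in MDA-Par to 1.66 in MDA-LM2.

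Normalised RNA counts summed to between 7023013 and 8326052 per library for MDA-Par and MDA-LM2 and to between 5415889 and 5559039 for the knockdown pair. Those of RPF summed to 650736 to 679726 and to 158011 to 167928. The RPF values lie on no common step, so their depth in reads is unknown. HNRNPC RNA was 2162 and 2146 in sgCTRL and 1147 and 1183 in sgHNRNPC, a log2 change of -0.89 ± 0.05 (SE; limma adjusted p = 5.14e-28). In MDA-LM2 the HNRNPC RNA change was -0.40 ± 0.12 (adjusted p = 0.0618). All 5 markers of this line (VIM, CD44, AXL, CAV1, MSN) were listed in both tables, and ESR1, PGR, PTPRC and PECAM1 were not. Of the other genes thought to be absent or low, ERBB2 was listed in both (RNA of 708 to 812 for MDA-Par and MDA-LM2, and of 127 to 180 for the knockdown pair), as was EPCAM (31.9 to 46.5 and 50.7 to 86.9), and GATA3 in the first alone (8.46 to 18.6).

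SELENON is a membrane glycoprotein of the ER with a role in calcium handling, best known from inherited muscle disease. Of the members described here, it showed the largest RPF and TE differences between MDA-LM2 and MDA-Par. Its RNA was 492 and 553 normalised counts in MDA-Par and 489 and 489 in MDA-LM2. Its RPF values were 18.3 and 19.9 in MDA-Par and 7.33 and 6.56 in MDA-LM2. The 2 lines were thus close in SELENON RNA, while both MDA-LM2 footprint values lay below both parental values. Each 100 RNA counts came with 3.72 and 3.59 footprint counts in the MDA-Par lysates and with 1.5 and 1.34 in the MDA-LM2 lysates, so that SELENON TE in MDA-LM2 was 38.9% of that in MDA-Par. In lysates of whole cultures a change in the share of cells that translate a gene and a change per cell cannot be told apart.

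On the log2 scale (value + 1) the SELENON differences were -0.09 ± 0.12 (SE) for RNA, -1.34 ± 0.39 for RPF and -1.25 ± 0.26 for TE. Ordered from the most negative, SELENON was 9th of 8393 tested genes for TE, 69th for RPF and 3479th for RNA. Among the 1827 genes with a mean RPF value between 10 and 20, where its own mean of 13 falls, its TE difference was the 6th lowest. The median of these genes was 0.06 with an SD of 0.45. The lower footprints of SELENON entered its choice, so these ranks are a description and no separate evidence. SELENON passed the filter (a mean of 10 or more for RNA and for RPF) through the parental libraries, its MDA-LM2 RPF values both being under 10. Over 12 other settings the TE difference ranged from -1.36 to -0.92. The RNA difference took the other sign, 0.08, when libraries were scaled to equal totals, a scaling that raised the median over all genes by 0.17 for RNA and shifted it by -0.12 for TE.

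SELENOS, an ER membrane protein that links the degradation machinery for misfolded proteins to the ATPase VCP, was higher in MDA-LM2. Its RNA was 172 and 141 in MDA-Par and 380 and 285 in MDA-LM2, and its RPF values were 44 and 36.8 against 55.4 and 68.8. Both MDA-LM2 values exceeded both parental values in either kind of library. The RNA difference was 1.07 ± 0.18 and the RPF difference 0.61 ± 0.20, which left a TE difference of -0.47 ± 0.29. Footprints per 100 RNA counts were 25.6 and 26.1 in MDA-Par and 14.6 and 24.2 in MDA-LM2, where the 2 lysates stood apart from each other. Without MDA-LM2 replicate 1 the SELENOS TE difference was -0.11, and without replicate 2 it was -0.83.

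GPX4, which reduces lipid hydroperoxides within membranes and thereby protects cells from ferroptosis, was lower in MDA-LM2. Its RNA was 4093 and 4076 in MDA-Par and 3128 and 2219 in MDA-LM2, the highest RNA of the family in both lines. Its RPF values were 64.4 and 55.7 in MDA-Par and 55.4 and 47.3 in MDA-LM2. RNA differed by -0.63 ± 0.17 and RPF by -0.22 ± 0.19, and footprints per 100 RNA counts were 1.57 and 1.37 against 1.77 and 2.13. GPX4 had less RNA in MDA-LM2 and a slightly higher TE (0.41 ± 0.22), with no overlap between the lines in RNA, RPF or TE. The MDA-LM2 replicates differed widely in GPX4 RNA: without replicate 1 the RNA difference was -0.88 and without replicate 2 it was -0.38.

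The remaining ER members differed little. SELENOF, a thioredoxin-like partner of the glycoprotein folding sensor UGGT1, had RNA values of 289 and 373 in MDA-Par and 334 and 345 in MDA-LM2, and RPF values of 84.1 and 83.0 against 81.0 and 93.7. SELENOT, an oxidoreductase of the ER membrane, had RNA values of 358 and 298 against 327 and 261, and RPF values of 34.0 and 30.2 against 33.6 and 30. For both genes the lines overlapped in RNA and in RPF, and the RNA, RPF and TE differences lay between -0.16 and 0.15. SELENOK, an ER membrane cofactor of the palmitoyltransferase ZDHHC6, had RNA values of 216 and 216 in MDA-Par and 252 and 231 in MDA-LM2, and RPF values of 33.0 and 29.4 against 28.5 and 27.3. Its RNA was slightly higher and its footprints slightly lower in MDA-LM2, and its TE difference was -0.31 ± 0.25.

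Outside the ER lumen, SELENOH, a nucleolar protein of redox defence, had RNA values of 436 and 449 in MDA-Par and 405 and 354 in MDA-LM2, and RPF values of 32.3 and 38.4 against 29.7 and 32.4. SELENOI, which makes phosphatidylethanolamine in the last step of the Kennedy pathway, had RNA values of 164 and 186 against 185 and 229, and RPF values of 46.1 and 51.1 against 57.9 and 52.0. Neither gene had a TE difference beyond its SE (0.05 ± 0.24 for SELENOH and -0.06 ± 0.26 for SELENOI). MSRB1, which repairs oxidised methionine, had RNA values of 282 and 253 against 224 and 168, and RPF values of 11 and 10.5 against 10.5 and 5.26. Its mean RPF value was below the filter, and in the fit without the filter its RNA and RPF differences were -0.46 ± 0.17 and -0.46 ± 0.44, with a TE difference of -0.00 ± 0.42.

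Counted over the 8 members that passed the filter, 2 were past an adjusted p of 0.05 for RNA (SELENOS higher, GPX4 lower), beside 15.2% of all 8393 genes tested. For RPF there were also 2, beside 12.0% of all genes: SELENOS, which was higher, and SELENON, whose lower footprints entered the choice of the genes. For TE limma counted 0 of 8, beside 0.0357% of all genes, with 1 member at an unadjusted p under 0.05, and logistic regression, the test used in the study, also counted 0, beside 2.16%, with 3 at an unadjusted p under 0.05. Nothing is read from these counts, since the contrast entered the choice of the genes. Median differences of the members were -0.02 for RNA, -0.08 for RPF and -0.03 for TE, next to -0.02, -0.01 and 0.03 over all genes.

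The MDA-LM2 values lay entirely above the parental ones for 2 of the 8 members in RNA, 2 in RPF and 2 in TE, and entirely below for 3 in each. Over all genes tested the shares above were 28.5%, 25.7% and 20.5%, and the shares below 33.6%, 27.6% and 15.8%. Leaving out 1 library moved several of the counts past the threshold. Without MDA-Par replicate 1 or 2, GPX4 dropped out of the RNA count, which became 1, although its difference stayed at -0.63 ± 0.27 and -0.64 ± 0.27. Without MDA-LM2 replicate 1 the RNA count became 5, with SELENOI, SELENOH and SELENOT added. For RPF, SELENON dropped out without MDA-Par replicate 1, and the count was 0 without MDA-Par replicate 2 or without MDA-LM2 replicate 2. The SELENON RPF difference in these fits was -1.39 ± 0.55, -1.28 ± 0.55 and -1.27 ± 0.47, next to -1.34 ± 0.39 with all libraries.

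**Figure D2:**
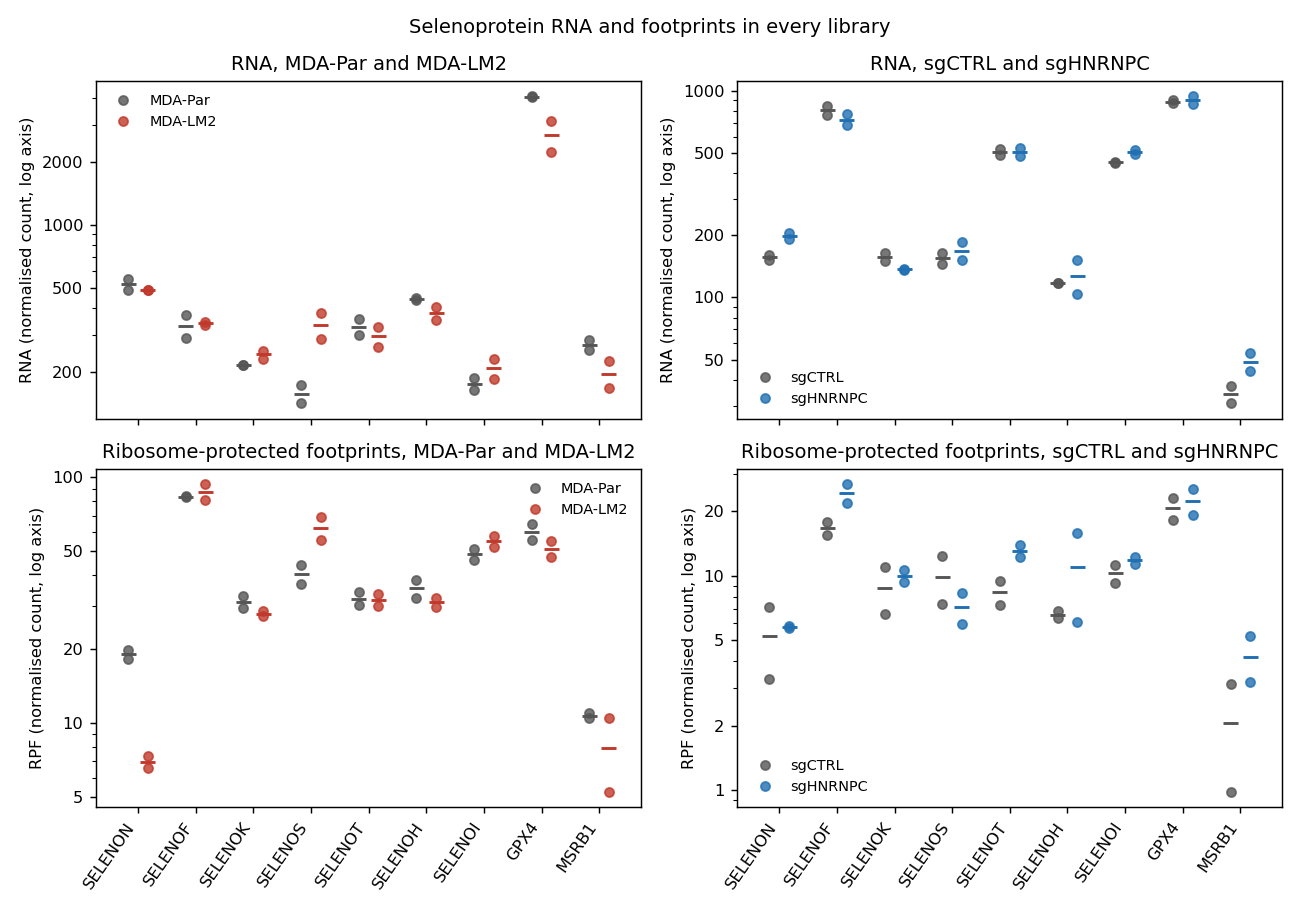
Normalised RNA (top) and RPF (bottom) counts of 9 selenoproteins, on log axes, in every library of MDA-Par and MDA-LM2 (left) and of sgCTRL and sgHNRNPC (right); points are libraries and short lines are means of 2. SELENON footprints are 18.3 and 19.9 in MDA-Par and 7.33 and 6.56 in MDA-LM2, while its RNA points lie between 489 and 553.

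Knockdown of HNRNPC asked whether the same mRNAs respond to loss of that protein. Here 4 members passed the filter (SELENOF, SELENOT, SELENOI and GPX4), and for none of them did limma call an RNA, RPF or TE change at an adjusted p under 0.05. SELENOT passed it through its sgHNRNPC footprints, so its place in the RPF and TE counts is a description. All genes tested were called at 16% for RNA, 0.0233% for RPF and 0% for TE. At an unadjusted p under 0.05 there were 2 members for RNA, 0 for RPF and 1 for TE, and logistic regression of TE called 0 of 4 (0.257% of all genes), with 1 at an unadjusted p under 0.05.

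SELENOF and SELENOT had the highest TE differences of the members tested. SELENOF RNA was 763 and 842 in sgCTRL and 767 and 679 in sgHNRNPC, and its RPF values were 17.8 and 15.5 against 26.7 and 21.9. Footprints per 100 RNA counts were 2.33 and 1.84 in sgCTRL and 3.48 and 3.22 in sgHNRNPC, both knockdown lysates lying above both controls. The SELENOF TE difference was 0.67 ± 0.22 (SE), with a limma adjusted p of 0.570 over 4283 genes. SELENOF RNA differed by -0.15 ± 0.06 (limma adjusted p = 0.0998). That RNA difference passed the threshold without sgCTRL replicate 1 (-0.22, limma adjusted p = 0.0354) and without sgHNRNPC replicate 1 (-0.24, limma adjusted p = 0.0305).

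SELENOT RNA was 488 and 523 in sgCTRL and 530 and 481 in sgHNRNPC, with RPF values of 7.27 and 9.49 against 13.9 and 12.2. SELENOT passed the filter through the sgHNRNPC libraries, its sgCTRL RPF values both being under 10. Its RPF and TE differences are therefore a description. Its RNA values overlapped, and its footprints per 100 RNA counts, 1.49 and 1.82 against 2.62 and 2.54, did not. The SELENOT TE difference was 0.59 ± 0.26. SELENOF, SELENOT and SELENOI are the members with a C followed by 6 U (CTTTTTT in DNA letters, searched on the sense strand of the annotated 3′ UTR), the kind of U run that HNRNPC binds. The same letters are found in 42.9% of the 10544 annotated 3′ UTRs among the listed mRNAs, and a match is no evidence of binding.

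SELENOI RNA was 454 and 446 in sgCTRL and 491 and 519 in sgHNRNPC, a difference of 0.17 ± 0.08 (limma adjusted p = 0.140), and its RPF values were 9.29 and 11.2 against 11.4 and 12.3. GPX4 RNA was 899 and 872 against 861 and 938, and its RPF values were 18.1 and 23.1 against 25.3 and 19.2. GPX4 overlapped between the lines in RNA, RPF and TE. The TE differences were 0.02 ± 0.24 for SELENOI and 0.08 ± 0.24 for GPX4 (limma adjusted p = 0.989 and 0.946). Without sgCTRL replicate 1 both TE differences were negative, at -0.11 for each gene.

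SELENON was below the filter in this table because of its RPF values, 3.31 and 7.17 in sgCTRL and 5.69 and 5.84 in sgHNRNPC. Its RNA was 161 and 152 against 192 and 206, both knockdown values lying above both controls. In the fit without the filter, over 8980 genes, SELENON RNA differed by 0.34 ± 0.12 (limma adjusted p = 0.0588) and TE by -0.15 ± 0.46 (limma adjusted p = 0.960). The sgCTRL lysates gave 2.05 and 4.71 footprints per 100 RNA counts and the sgHNRNPC lysates 2.97 and 2.84, so the control values enclosed the knockdown values. Whether the SELENON difference in MDA-LM2 exceeds that after knockdown was not tested, the tables having been normalised separately.

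The other members below the filter had few footprints. SELENOK RNA was 150 and 164 in sgCTRL and 138 and 136 in sgHNRNPC, and its RPF values were 10.9 and 6.66 against 10.6 and 9.32. SELENOS RNA was 163 and 146 against 151 and 185, and its RPF values were 12.3 and 7.35 against 5.99 and 8.34. SELENOH RNA was 118 and 118 against 151 and 104, with RPF values of 6.36 and 6.82 against 6.10 and 15.8. These RPF ranges overlapped for all 3 genes. MSRB1 RNA was 30.7 and 37.3 in sgCTRL and 53.9 and 43.9 in sgHNRNPC, the lowest RNA of the members described here. Its RNA difference without the filter was 0.51 ± 0.25 (limma adjusted p = 0.202).

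Of the 4 members tested after knockdown, sgHNRNPC lay entirely above sgCTRL for 1 in RNA (SELENOI), 3 in RPF (SELENOF, SELENOT and SELENOI) and 2 in TE (SELENOF and SELENOT), and entirely below for 0 in each. The shares of all genes tested that lay entirely above were 20.2%, 20.8% and 22.6%, and of those entirely below 34.6%, 17.1% and 13.9%. The medians over these 4 genes were 0.01 for RNA, 0.35 for RPF and 0.34 for TE, and those over all genes -0.04, 0.02 and 0.06. SELENOT is among the 4 only through its sgHNRNPC footprints, so nothing is read from these RPF and TE counts and medians.

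**Figure D3:**
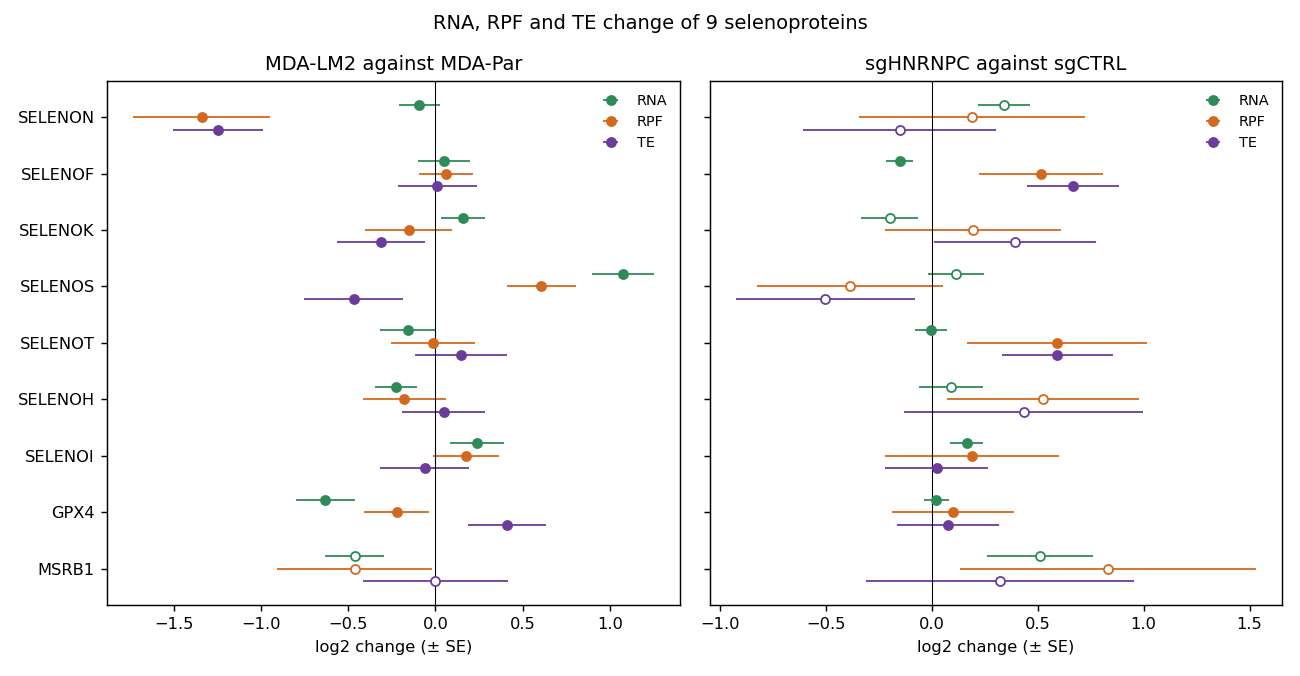
Log2 difference ± SE in RNA (green), RPF (orange) and TE (purple) for 9 selenoproteins, MDA-LM2 against MDA-Par (left) and sgHNRNPC against sgCTRL (right). Filled points are genes that passed the filter, and open points come from the fit without it; SELENON in MDA-LM2 has an RNA point at -0.09 and a TE point at -1.25.

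The members also differed widely in TE within each line. To compare genes, footprints were taken per kilobase of coding sequence and RNA per kilobase of mRNA, and each gene was placed among the tested genes of its table (8208 with an annotation for MDA-LM2 and 4190 for the knockdown). Members below the filter were placed too: MSRB1 in both tables, and SELENON, SELENOK, SELENOS and SELENOH in the knockdown table. Their places there rest on few footprints. GPX4 had the lowest TE per length of the 9 members in all 4 lines, at the 0.512 percentile in MDA-Par, 0.743 in MDA-LM2, 4.70 in sgCTRL and 5.66 in sgHNRNPC. Without the correction for length GPX4 was lowest in MDA-Par alone. SELENON then lay lower in MDA-LM2 (log2 TE of -5.95 against -5.66). SELENOT and SELENOF lay lower in sgCTRL (percentiles of 6.18 and 9.62 against 12.3), and SELENOI in sgHNRNPC (14.0 against 14.3). In MDA-Par the log2 TE per length of GPX4 was -5.55 ± 0.14 (SD, n = 2), from 4800 RNA counts and 101 footprint counts per kilobase. SELENOI was highest in MDA-Par and MDA-LM2, at 0.93 ± 0.02 and 0.87 ± 0.32 and at the 98.3 percentile in both. The order from low to high in MDA-Par was GPX4, SELENON, MSRB1, SELENOH, SELENOT, SELENOS, SELENOK, SELENOF and SELENOI. The gap from MSRB1 to SELENOH was 0.21 and that from SELENOK to SELENOF 0.03, the second within the SD of either gene. In MDA-LM2 SELENOS, SELENOK and SELENOT were likewise closer to each other than the larger SD of each neighbouring pair.

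Per length, SELENON was second lowest in MDA-Par, MDA-LM2 and sgHNRNPC and the third lowest in sgCTRL. Its log2 TE per length was -3.42 ± 0.04 in MDA-Par (13 percentile), -4.66 ± 0.10 in MDA-LM2 (1.66), -3.45 ± 0.71 in sgCTRL (39.3) and -3.60 ± 0.05 in sgHNRNPC (32.8). Of the other selenoproteins listed, SELENOW (1.38), GPX3 (9.94), SEPHS2 (10.3) and SELENOO (10.8) lay below SELENON in MDA-Par. TXNRD3 (22.4), SELENOM (31.8), TXNRD2 (33.2) and TXNRD1 (46.0) lay above it. In MDA-LM2 all of these lay above SELENON. SELENOW and TXNRD3 were below the filter. In MDA-LM2 SELENON came within 0.48 of GPX4, the next lower member, where in MDA-Par the gap had been 2.13. The median over the genes compared was -1.93 in MDA-Par and -1.90 in MDA-LM2. SELENOT, whose UGA is placed nearly as early as the first of SELENON (25.1% and 21.5% of the coding sequence), lay at the 80.1 percentile in MDA-Par and at the 84.0 in MDA-LM2. Without the correction for length SELENOT lay at 39.9 in MDA-Par and 42.7 in MDA-LM2, and SELENON at 8.52 and 1.10.

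SELENOF was placed differently in the 2 tables. It stood at the 88.0 percentile in MDA-Par and the 89.1 in MDA-LM2, and at the 23.5 in sgCTRL and the 47.3 in sgHNRNPC. MSRB1 went the other way, from 29.9 and 27.7 to 91.8 and 94.2, with RPF values of 0.985 to 5.22 in the knockdown table. SELENOK was in the upper part in all 4 lines, between 82.8 and 95.5. The median percentile of the 9 members was 80.1, 73.9, 66.5 and 69.7 in MDA-Par, MDA-LM2, sgCTRL and sgHNRNPC, and without the correction for length it was 39.9, 42.7, 29.8 and 25.9. These medians include the members below the filter, more of them in the knockdown table.

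The place of the first UGA and the log2 TE per length had a Pearson r of 0.588 in MDA-Par, 0.582 in MDA-LM2, 0.659 in sgCTRL and 0.521 in sgHNRNPC, and a Spearman rho of 0.567, 0.350, 0.667 and 0.417. Over all selenoproteins listed, 17 for MDA-Par and MDA-LM2 and 14 for the knockdown pair, r was 0.472, 0.443, 0.650 and 0.522 and rho 0.402, 0.365, 0.547 and 0.349. Some genes with the UGA at the very end had a low TE per length in MDA-Par: SELENOO lay at the 10.8 percentile, TXNRD2 at the 33.2 and TXNRD1 at the 46.0. In MDA-LM2 they lay at 5.69, 22.2 and 48.3. In the knockdown table their places differed, at 93.8, 84.2 and 14.4 in sgCTRL and at 53.6, 85.7 and 18.3 in sgHNRNPC. There SELENOO and TXNRD2 were below the filter, all their RPF values being under 10. The r and rho values include genes below the filter. These are descriptions over genes that share the libraries of a line, and both quantities contain the coding length.

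**Figure D4:**
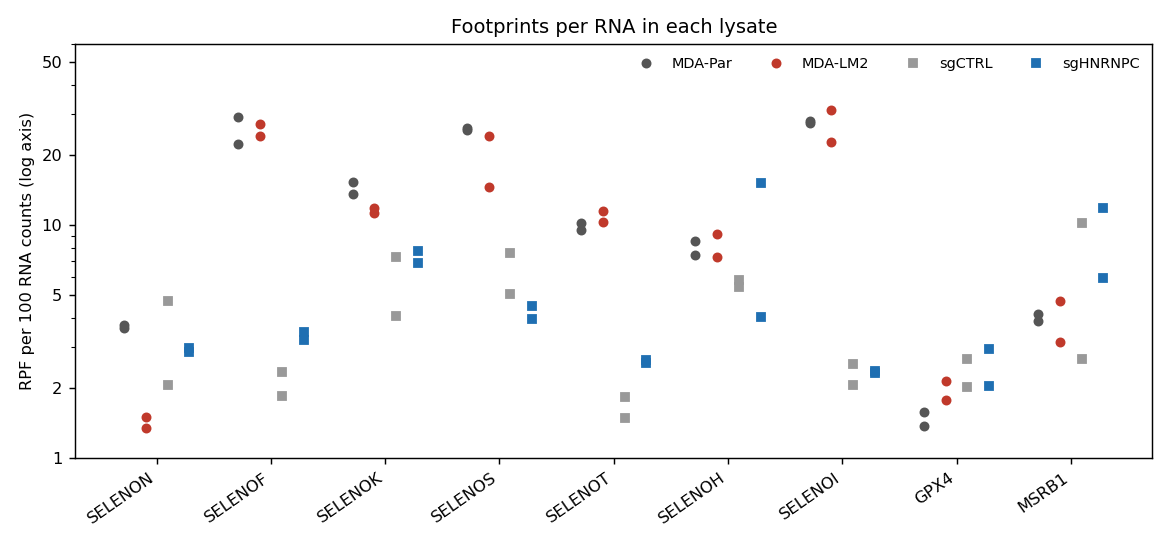
Footprints per 100 RNA counts, on a log axis, for each gene in every lysate of the 4 lines, without correction for length. The MDA-LM2 points of SELENON (1.5 and 1.34) lie below its other 6 points. The points of SELENOF, SELENOI, SELENOT, SELENOK and SELENOS are lower in the knockdown table than in the MDA-LM2 table, the tables having been normalised separately. The median log2 TE over the genes compared was lower there too, -4.21 in sgCTRL and -4.17 in sgHNRNPC against -3.00 in MDA-Par and -2.95 in MDA-LM2.

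Other genes of selenium biology were examined as lists. Of 15 further selenoproteins, 8 were listed and 6 tested in MDA-LM2. Of these 6, limma called 2 lower and 0 higher in RNA, beside 15.2% of all genes called in either direction, and TXNRD2 RNA, which was not called, was 208 and 208 in MDA-Par and 287 and 232 in MDA-LM2 (0.31, limma adjusted p = 0.187). TXNRD1, the cytosolic thioredoxin reductase with its UGA in the penultimate sense position, was 2011 and 1935 in MDA-Par and 1278 and 1374 in MDA-LM2 (-0.57 ± 0.11, limma adjusted p = 0.0158), and its RPF values fell too (-0.46 ± 0.12, limma adjusted p = 0.00945). SELENOM, a thioredoxin-like ER protein, fell in RNA by 0.66 (SE 0.18, limma adjusted p = 0.0485). For TE limma and logistic regression each called 0 of 6, and with limma 0 had an unadjusted p under 0.05. After knockdown TXNRD1 was the single one tested, and its RNA fell from 2307 and 2138 to 1809 and 1791 (-0.30 ± 0.05, limma adjusted p = 3.68e-07). The MDA-LM2 RNA calls were lost at differences of similar size when a parental library was left out. TXNRD1 RNA differed by -0.55 without MDA-Par replicate 1 (limma adjusted p = 0.243) and by -0.60 without replicate 2 (limma adjusted p = 0.151), and SELENOM RNA by -0.79 and -0.53 (limma adjusted p = 0.0969 and 0.326). The TXNRD1 RPF difference was -0.29 without MDA-Par replicate 2 (limma adjusted p = 0.247) and -0.63 without replicate 1. The SELENOM call was also lost with equal totals (-0.49, limma adjusted p = 0.107) and with quantile normalisation (-0.68, limma adjusted p = 0.0523).

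Of 15 genes for selenocysteine synthesis and insertion, 12 were tested in MDA-LM2 and 4 after knockdown. LRP8, the receptor through which many cells take up selenoprotein P, was 637 and 632 RNA counts in MDA-Par and 330 and 304 in MDA-LM2, and fell by 1.00 (SE 0.11, limma adjusted p = 0.00210), 1 of the 12 in RNA beside 15.2% of all genes. No other gene of the list was called in MDA-LM2 in RNA, and none was called in RPF or TE by limma, where 2 and 0 had an unadjusted p under 0.05. The nearest was SARS1, the seryl-tRNA synthetase that charges the selenocysteine tRNA with serine, whose RPF values differed by 0.32 ± 0.11 (limma adjusted p = 0.0529). SARS1, 1 of 4 beside 16% of all genes, rose in RNA after knockdown from 866 and 801 to 988 and 985 (0.24, limma adjusted p = 0.00131). Without sgCTRL replicate 2 the difference was 0.19 (limma adjusted p = 0.0534). In RPF and TE limma called 0 of these 4 genes, with 0 at an unadjusted p under 0.05 in either.

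Of 8 related genes without selenocysteine, 6 were tested in MDA-LM2 and GPX8, an ER peroxidase, was the 1 called there in RNA and in RPF (15.2% and 12.0% of all genes). GPX8 RNA rose from 265 and 293 to 436 and 453 (0.67, limma adjusted p = 0.0122) and its RPF values from 56.3 and 28.9 to 69.0 and 75.9 (0.83, limma adjusted p = 0.00931). Without MDA-Par replicate 1 the RNA call was lost at a difference of 0.60 (limma adjusted p = 0.145), and without replicate 2 the RPF call was lost at a difference of 0.36 (limma adjusted p = 0.315). After knockdown 0 of 3 were called in RNA, RPF or TE, with 1, 0 and 0 at an unadjusted p under 0.05.

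All 8 ER partners were tested in MDA-LM2, and 1 was called in RNA and in RPF, beside the same shares of all genes. ZDHHC6, the enzyme that works with SELENOK, rose in RNA from 202 and 209 to 294 and 306 (0.55, limma adjusted p = 0.0259) and in RPF from 9.77 and 8.44 to 21.5 and 22.4 (1.19, limma adjusted p = 0.0239). ZDHHC6 passed the filter through the MDA-LM2 libraries, its MDA-Par RPF values both being under 10, so its RPF call is read only as a description. In the knockdown table it was below the filter, with RPF values of 7.67 and 7.50 in sgCTRL and 1.86 and 1.45 in sgHNRNPC. SELENOK itself had RPF values that were slightly lower in MDA-LM2, as given above, a difference within its SE (-0.15 ± 0.25). The ZDHHC6 RNA call was lost without MDA-Par replicate 1 or 2 at differences of 0.52 and 0.57 (limma adjusted p = 0.253 and 0.161), and its RPF call without MDA-Par replicate 2 or either MDA-LM2 replicate at 1.09, 1.21 and 1.16 (limma adjusted p = 0.0602, 0.117 and 0.165). VCP, the partner of SELENOS, fell in RNA after knockdown from 1673 and 1597 to 1482 and 1350 (-0.21, limma adjusted p = 0.00138), 1 of the 7 tested beside 16% of all genes, a call lost without sgHNRNPC replicate 2 (-0.14, limma adjusted p = 0.152). For TE limma called 0 of the 8 in MDA-LM2 and 0 of the 7 tested after knockdown, with 1 in each at an unadjusted p under 0.05, and logistic regression called 1 in MDA-LM2, VCP, beside 2.16% of all genes.

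The genes whose pattern was most like that of SELENON were found by Pearson r over the 16 libraries, each value centred on the mean of its table and kind of library, among 4280 genes tested in both tables. CYBRD1, a ferric reductase, had an r of 0.926, ARF4, a small GTPase of the secretory pathway, 0.922, and LUZP1 0.896. CYBRD1 RNA was 195 and 208 in MDA-Par and 207 and 207 in MDA-LM2, and its RPF values were 35.9 and 34.5 against 21.9 and 22.7. Like SELENON, CYBRD1 had near-equal RNA and fewer footprints in MDA-LM2, although its RPF difference of -0.64 was smaller. The 4 members tested in both tables were less like SELENON, with an r of 0.398 for GPX4, 0.229 for SELENOT, -0.01 for SELENOI and -0.12 for SELENOF. All of these r values rest on the same 16 libraries. SELENON itself was below the filter in the knockdown table, so that part of its pattern rests on few footprints. Its lower MDA-LM2 footprints, which entered its choice, are part of r. Genes with fewer MDA-LM2 footprints are thus favoured, and the likeness is no separate evidence.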

How the data were processed

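Groups were taken from the sample titles. What the authors deposited is a normalised signal on a linear scale, with 1 value for each mRNA and library. The authors trimmed linkers with cutadapt 2.3, collapsed molecular identifiers, removed rRNA and tRNA reads, aligned to 1 mRNA per gene with Bowtie2 2.3.5 and scaled by median-of-ratios factors. RNA values were whole multiples (within 0.01) of 1 step per library, 0.883 to 1.11, and RPF values were not. A correction for stalling peaks is in the study's methods and may have acted on the RPF values.

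Gene symbols came from GENCODE version 44 on hg38, which held 97.9% of the identifiers of either table. RNA and RPF were each fitted over 4 libraries, and TE over 8 libraries as the interaction of line and kind, on log2(value + 1) with limma 3.58.1 (R 4.3.3, trended empirical Bayes, two-sided), for genes averaging 10 or more in RNA and in RPF. Calls used a Benjamini-Hochberg adjusted p under 0.05 over all genes tested. The fits were tested on simulated data. Logistic regression took normalised values as reads. Sequence identity was searched with BLAST 2.17.0, and 0 of 9 members had a listed near copy (90% over 100 bases). Python 3.11.15, numpy 2.4.6, pandas 2.3.3 and matplotlib 3.10.9 were used.

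The members and lists were chosen with earlier results of these data known. 1 sequence is not reported here. All 10 members, HNRNPC, called list genes and the 3 genes most like SELENON are named. Alternatives were an added 0.5 or 5, no filter or a mean of at least 50, equal totals, quantile normalisation, a replicate block, TE within each lysate and leaving out each lysate.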

Additional observations from a re-analysis of the deposited data

How the results depend on the processing

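In MDA-LM2 the 2 members counted for RNA became 1 with a minimum mean of 50, with equal totals and with quantile normalisation, and 1 to 5 when 1 lysate was left out. The 2 counted for RPF became 1 without the filter and with a minimum mean of 50, and 0 to 2 when 1 lysate was left out. After knockdown the RNA count of 0 ranged from 0 to 1. Without the correction for length the median TE percentile of the members fell to 39.9, 42.7, 29.8 and 25.9 in MDA-Par, MDA-LM2, sgCTRL and sgHNRNPC; the lengths themselves make that shift. SELENOT RNA after knockdown reversed to 0.021 under quantile normalisation, and SELENOI TE to -0.023 with 5 added. When a lysate was left out after knockdown, SELENOT RNA ranged from -0.072 to 0.069, GPX4 RNA from -0.040 to 0.083, GPX4 RPF from -0.092 to 0.29, SELENOI TE from -0.11 to 0.16 and GPX4 TE from -0.18 to 0.33. Scaling to equal totals turned the sign of 4 further uncalled MDA-LM2 differences, SELENOT RNA (0.01) and RPF (0.04) and the TE of SELENOF (-0.10) and SELENOH (-0.07). Where no construction is named, the cause was not tested. The labels give no shared batch for a replicate number, and 2 pairs are too few to settle a pairing from the data: same-numbered libraries deviated together in MDA-LM2 RNA (r of deviations 0.234) and hardly in MDA-LM2 RPF, knockdown RNA and knockdown RPF (0.04, -0.00 and 0.03). With the replicate block the counts of members called stayed at 2, 2 and 0 in MDA-LM2 and 0, 0 and 0 after knockdown. A count model on recovered RNA reads was not run. The unknown RPF depth limits all RPF and TE values, most of all in the knockdown table.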
